A study of Mus musculus with 17 samples.

Results

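The genes described here encode 9 enzymes that couple acetaminophen (APAP), a painkiller, or other compounds to a sugar or to sulfate, and 1 enzyme that makes the sulfate donor: Ugt1a1, Ugt1a6a, Ugt1a9, Ugt2b1, Ugt2b5, Ugt3a2, Sult1a1, Sult1d1, Sult5a1 and Papss2. They were chosen by gene symbol, and all 10 were found among the 46073 genes of the deposited table. Livers of male C57BL/6 mice were taken 24 h after APAP or saline and their RNA sequenced, 1 library per liver and 17 in all. By its title the study is on whether Nampt, which makes NAD from nicotinamide, protects against APAP injury. At 200 mg/kg APAP there were 2 livers labelled Nampt OE (OE below), 3 labelled Nampt +/- (Het) and 3 labelled Nampt +/+ (WT). Under saline there were 2 OE, 2 Het and 3 WT livers. Another OE mouse had 300 mg/kg APAP and another WT mouse had saline labelled IG, each without a replicate. The mice were 11 or 12 weeks old. The livers labelled perfused were Het APAP 1, OE APAP 2, OE saline 1, WT saline 1 and 2 and both Het saline livers. Perfusion was thus uneven between APAP and saline livers. The labels give no promoter, construct or cell type for OE. Nothing says that the livers of a group came from separate experiments. A p-value thus sets a difference against the spread between single livers, which mixes differences between mice with technical ones.

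Glucuronidation is done by UDP-glucuronosyltransferases (Ugt genes) in the endoplasmic reticulum of hepatocytes, which move glucuronic acid from UDP-glucuronic acid onto a drug, bilirubin or a steroid. Sulfation is done by cytosolic sulfotransferases (Sult genes), which use the donor PAPS made by the Papss enzymes. In the liver both routes turn APAP into water-soluble products that leave in bile and urine, while the P450 enzymes, chiefly Cyp2e1, oxidise some of a large dose to a reactive intermediate that kills pericentral hepatocytes.

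Libraries labelled Het were not the lowest in Nampt mRNA, so OE, Het and WT mean libraries labelled so. After APAP it was 18.5 and 35.97 FPKM in OE, 11.3 to 15.4 in Het and 10.9 to 16.7 in WT livers, and under saline 22.4 and 27.2 in OE, 23.0 and 26.0 in Het and 15.3 to 18.0 in WT livers. FPKM gives the fragments of a gene after scaling by its transcript length and by how many were mapped. Summed FPKM was 466883 to 916006 per library, and depth, read from the spacing of the lowest values, was 0.591 to 1.64 times that of WT saline 1. On the first principal component (42.5% of the variance) the saline livers scored -31.0 to -15.9. Het APAP livers scored 38.0, 63.4 and 56.4 there, WT APAP livers 6.34, 13.7 and 38.6, and OE APAP livers -12.1 and 9.01. OE APAP 1 and OE saline 2, both of lane 4, scored 39.0 and 38.5 on the second principal component (12.8% of the variance), against 15.2 for the next library. The 300 mg/kg OE liver, also of lane 4, scored -13.7 there. Of the 8 hepatocyte markers looked up, 7 were detected and Alb was listed at 0 in all libraries. None of the 170 values of the 10 genes was 0, the lowest being 0.910 FPKM, so no failed estimate touches them.

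Ugt1a1, Ugt1a6a and Ugt1a9 lie in one locus on chromosome 1 (plus strand, GRCm38, GENCODE M21) and end in the same exons, while each starts at a promoter of its own. Ugt1a1 spans 88211959 to 88218997, Ugt1a6a starts at 88134809 and Ugt1a9 at 88070800. Their longest coding transcripts share 4 exons of 1311 bases, which make up 58.9% of Ugt1a1, 57.1% of Ugt1a6a and 59.9% of Ugt1a9. The transcripts start 3.08, 80.2 and 144 kb before the shared exons. The 250 bases before each RefSeq start (GRCm38.p6, plus strand, 5′ to 3′) are shown because the promoters and first exons, not the shared exons, tell these genes apart. Capitals mark ATTAAC, which reads GTTAAT on the opposite strand (core letters of sites for the liver factor HNF1), and in Ugt1a9 also AGGTCA, core letters of nuclear receptor sites.
Ugt1a1, chr1:88211709-88211958: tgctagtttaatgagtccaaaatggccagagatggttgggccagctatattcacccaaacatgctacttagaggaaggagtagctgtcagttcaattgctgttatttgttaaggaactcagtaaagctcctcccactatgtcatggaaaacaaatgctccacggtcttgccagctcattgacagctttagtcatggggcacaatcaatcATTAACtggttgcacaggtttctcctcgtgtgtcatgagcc
Ugt1a6a, chr1:88134559-88134808: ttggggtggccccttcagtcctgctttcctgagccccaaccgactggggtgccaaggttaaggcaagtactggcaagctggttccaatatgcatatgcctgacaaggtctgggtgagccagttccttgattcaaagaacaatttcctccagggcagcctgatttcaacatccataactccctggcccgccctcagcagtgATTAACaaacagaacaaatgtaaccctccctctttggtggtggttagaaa
Ugt1a9, chr1:88070529-88070778: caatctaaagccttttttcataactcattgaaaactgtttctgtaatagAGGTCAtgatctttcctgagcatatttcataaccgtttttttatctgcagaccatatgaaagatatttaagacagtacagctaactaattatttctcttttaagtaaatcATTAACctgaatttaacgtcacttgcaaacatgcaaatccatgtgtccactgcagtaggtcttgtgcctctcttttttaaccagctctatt
RefSeq windows were found for 9 of the 10 genes, with 2 starts for Papss2 and none for Ugt3a2. GTTAAT on either strand was in all 3 windows printed, 41, 50 and 91 bases before the start, and in 5 of the 10 windows (also Sult1a1 and Sult1d1), against 6.43% of 32851 mouse windows of that length. AGGTCA was in 3 of the 10 (Ugt1a9, Ugt2b5 and 1 start of Papss2) and in 14.02% of all, and GCGTG of Ah receptor sites in 1 of 10 (Sult1d1) and in 28.2% of all. TATAAA (12.4% of all), TGACNNNGC of antioxidant response elements (10.2%) and the full HNF1 site, GTTAAT and ATTAAC with 1 base between them (0.00913%) were in 0 of 10. Both strands were searched, and a match describes only the letters.

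Shared sequence limits how far single levels can be read. Of all stretches of one read length (101 bases), 57.2% of Ugt1a1, 58.5% of Ugt1a9 and 100% of Ugt1a6a also occur in transcripts of other Ugt1a genes, so these levels depend on how the estimation split reads, and that of Ugt1a6a is the least certain. Ugt2b5 (chromosome 5, 87124960 to 87140318, minus strand) shares 24.6% with Ugt2b37 and Ugt2b38, and Sult1a1 (chromosome 7, 126672865 to 126676432, minus strand) shares 2.13% with the predicted gene Gm6939. Ugt2b1, Ugt3a2, Sult1d1, Sult5a1 and Papss2 share 0% by this measure.

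Ugt2b5 had the highest level per length of the 10 genes in WT saline livers, at 448 ± 57.6 FPKM (SD, n = 3). Ugt2b1 followed at 236 ± 9.56, Ugt3a2 at 184 ± 9.60, Sult1a1 at 162 ± 3.69 and Ugt1a1 at 154 ± 13.2 FPKM. Ugt1a6a (67.6 ± 6.71), Papss2 (59.2 ± 10.03), Sult1d1 (54.02 ± 2.78) and Ugt1a9 (48.7 ± 1.98) came next, and Sult5a1 was lowest at 10.2 ± 1.54 FPKM. The libraries of Sult1a1 and Ugt1a1, of Ugt1a6a and Papss2, and of Papss2 and Sult1d1 overlapped, and the other neighbours in this order did not. After APAP the top of the order differed: Sult1a1 had the highest mean level in OE livers (303 ± 56.7 FPKM, n = 2) and in Het livers (133 ± 34.6, n = 3), overlapping Ugt2b5 in both, while Ugt2b5 led in WT livers (203 ± 44.1, n = 3) without overlap.

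The sum of the 6 Ugt levels within a library was 563 to 821 FPKM in OE APAP livers, against 728 to 962 in OE saline livers. It was 217 to 305 in Het APAP livers, against 1167 to 1181 in Het saline livers, and 349.9 to 535 in WT APAP livers, against 1081 to 1236 in WT saline livers. The APAP and saline sums were apart under the Het and WT labels and overlapped under OE. The sum of the 3 Sult levels, mostly Sult1a1, was 306 to 415 FPKM in OE APAP livers, against 278 to 382 in OE saline livers. It was 126 to 219 in Het APAP livers, against 282 to 309 in Het saline livers, and 113 to 189 in WT APAP livers, against 222 to 233 in WT saline livers. These sums are descriptions, and in bulk tissue fewer hepatocytes and less RNA per hepatocyte cannot be told apart.

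**Figure D1:**
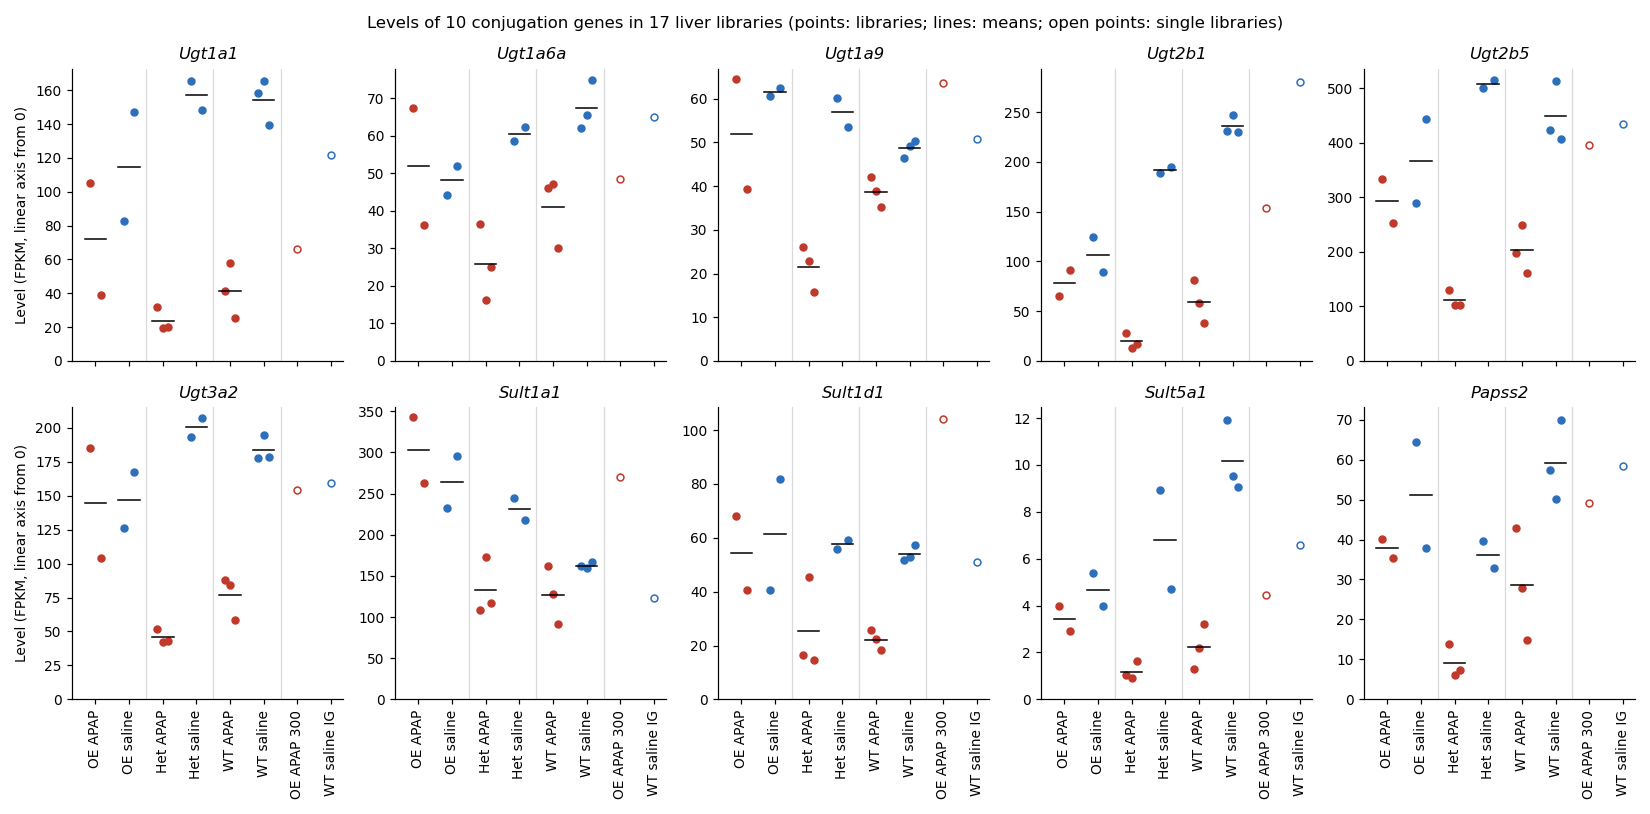
FPKM of the 10 genes, one panel per gene with a linear axis from 0; each filled point is a liver library, lines are group means, red is APAP, blue is saline, and open points at the right are the single 300 mg/kg and IG libraries. The Het APAP points lie below both Het saline points in all 10 panels, the WT APAP points below all WT saline points in 9, and the OE APAP points below both OE saline points in 1.

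Most of these genes were lower after APAP. Averaged over the labels, 9 of the 10 fell and 0 rose (limma on log2(FPKM + 1) with a term for liver perfusion, Benjamini-Hochberg adjusted p under 0.05, 8 APAP and 7 saline livers), where 13.3% of the 11084 genes tested fell. The median difference of the 10 was -1.19 on the log2(FPKM + 1) scale, and that of all tested genes was -0.023. Ugt1a1 had the largest difference on this scale (-1.91 ± 0.28, SE, adjusted p = 0.00106) and Ugt2b1 the smallest p (-1.72 ± 0.18, adjusted p = 2.00e-04). Sult1a1 did not pass (-0.46 ± 0.16, adjusted p = 0.0525). Ugt1a1, Ugt2b1, Ugt2b5, Ugt3a2, Sult1d1 and Sult5a1 also passed under each of 22 alternative settings, whereas Ugt1a6a (-0.68 ± 0.21, adjusted p = 0.0372) passed under 10 of 22. Ugt1a9 (-0.69 ± 0.15) and Papss2 (-1.03 ± 0.26) lost the call without OE APAP 2, and Papss2 also without WT saline 3 and with no filter on low values.

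By label, 0 of 10 genes fell in OE livers, 10 of 10 in Het livers and 6 of 10 in WT livers. Of all tested genes 0% fell in OE, 13.1% in Het and 3.57% in WT livers. In OE livers limma called 0 genes in all, and at an unadjusted p under 0.05 it called 4.83% of the tested genes and 0 of the 10. The libraries of the APAP and saline groups were apart, with APAP lower, for 1 gene in OE, 10 in Het and 9 in WT livers, against 10.6%, 33.3% and 21.7% of all tested genes. No lane held both WT saline livers and livers of another of the 6 replicated groups, so the WT response and lane cannot be told apart. Within non-perfused WT livers, 3 APAP against 1 saline, all 10 genes were lower (median -1.28). Within lane 8, all 10 were lower in 1 Het APAP liver than in the mean of 2 Het saline livers (median -1.82). The share of all tested genes that were lower was not computed for these comparisons, so the counts are descriptions. Single libraries weighed on the WT counts: 3 genes fell without WT APAP 3, 3 without WT saline 1, 4 without WT saline 2 and 2 without WT saline 3. Without WT saline 3 limma called 145 of all tested genes in either direction, against 616 in the main fit. Het counts also changed without 1 Het saline liver, which left 1 in that group. With lane in place of perfusion 6 fell in Het livers, and Ugt1a6a, Sult1a1, Sult1d1 and Papss2 did not pass there. With no filter on low values 3 fell in WT livers, and Ugt1a1, Ugt2b5 and Sult1d1 did not pass. Quantile normalisation changed the WT split over all genes to 238 higher and 248 lower calls, against 220 and 396 in the values as deposited, and 5 of the 10 genes then fell.

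**Figure D2:**
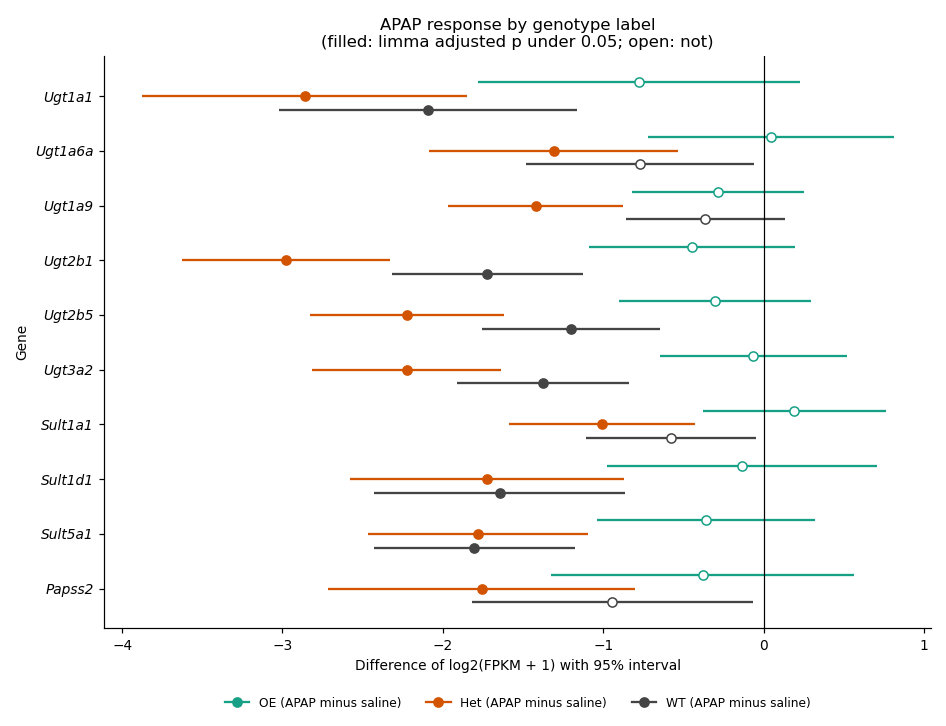
APAP minus saline difference of log2(FPKM + 1) for each gene in OE, Het and WT livers; bars are 95% intervals and filled points passed limma's adjusted p of 0.05. Every OE interval includes 0, all 10 Het points are filled, and 6 of the 10 WT points are filled.

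Ugt1a1, the enzyme that conjugates bilirubin, fell in Het and WT livers. Its levels were 105 and 38.9 FPKM in OE APAP livers, against 82.7 and 147 in OE saline livers. In Het livers they were 31.8, 19.3 and 20.1 after APAP, against 166 and 148 under saline, and in WT livers 41.6, 57.9 and 25.3 after APAP, against 158, 165 and 139.7 under saline. The OE groups overlapped, and both other pairs were far apart. The difference was -2.86 ± 0.46 in Het (adjusted p = 0.00227, 7.27-fold lower on the log2(FPKM + 1) scale) and -2.09 ± 0.42 in WT livers (adjusted p = 0.0185). In OE livers it was -0.78 ± 0.46 and did not pass (95% interval -1.78 to 0.23). The WT call was lost without WT APAP 3, without WT saline 1 and without WT saline 3.

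Ugt1a9, whose human counterpart conjugates APAP and other phenols, passed in Het livers and did not pass in OE or WT livers. It had 64.5 and 39.3 FPKM in OE APAP livers, against 60.6 and 62.5 in OE saline livers (-0.29 ± 0.25). It had 26.2, 22.9 and 15.7 in Het APAP livers, against 60.2 and 53.6 in Het saline livers (-1.42 ± 0.25, adjusted p = 0.00282), and 42.01, 38.9 and 35.3 in WT APAP livers, against 46.5, 49.2 and 50.4 in WT saline livers (-0.36 ± 0.23, adjusted p = 0.38). Its WT groups were apart by a small margin. Ugt1a6a, which conjugates small phenols, had 67.6 and 36.2 FPKM in OE APAP and 44.3 and 52.00 in OE saline livers, 36.4, 16.3 and 25.02 in Het APAP and 58.6 and 62.4 in Het saline livers, and 46.00, 47.2 and 30.2 in WT APAP and 62.02, 65.6 and 75.03 in WT saline livers. It passed in Het (-1.31 ± 0.36, adjusted p = 0.0218) but not in WT livers (-0.77 ± 0.33, adjusted p = 0.182), and the Het call was lost without Het saline 1 and without Het saline 2.

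Within a library, the ratio of Ugt1a1 to Ugt1a9 levels was 1.63 and 0.989 in OE APAP livers, against 1.36 and 2.35 in OE saline livers. It was 1.22, 0.842 and 1.28 in Het APAP livers, against 2.75 and 2.77 in Het saline livers, and 0.990, 1.49 and 0.718 in WT APAP livers, against 3.40, 3.36 and 2.77 in WT saline livers. Every Het and WT APAP library thus had a lower ratio than every Het and WT saline library, and the OE groups overlapped. The 300 mg/kg OE liver had a ratio of 1.04 and the IG saline liver one of 2.40. The ratio is given with no test.

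**Figure D3:**
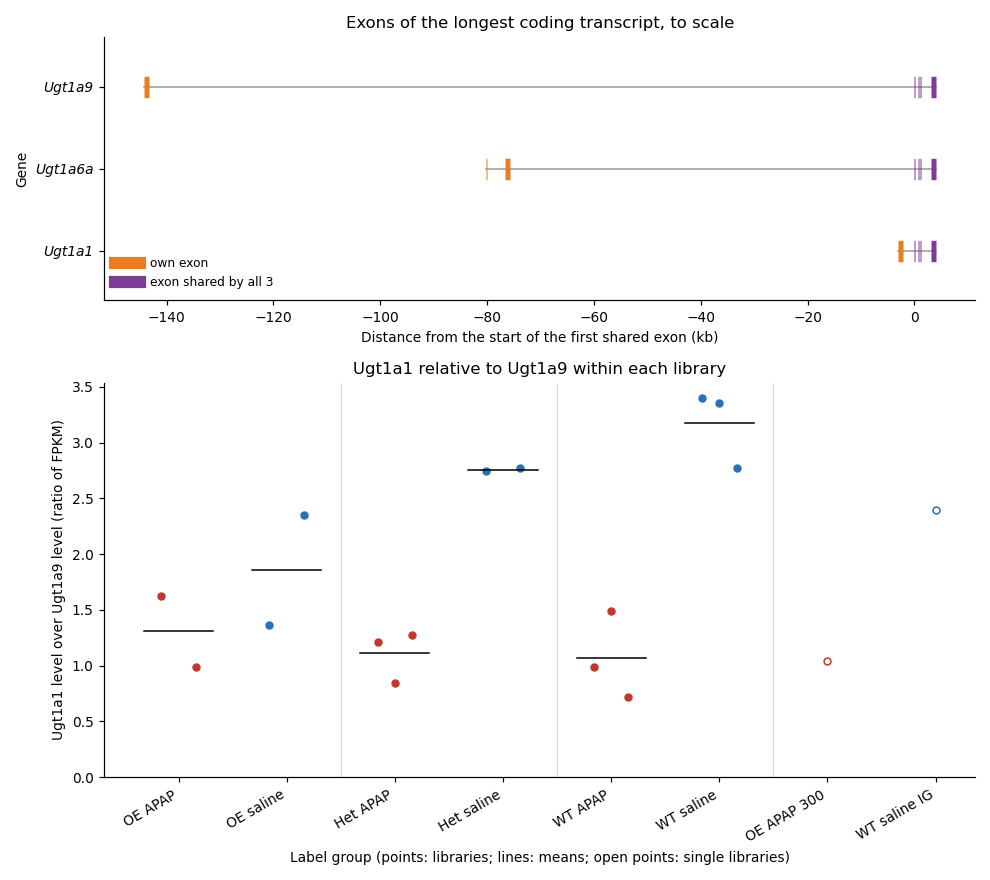
Top, exons of the longest coding transcript of each Ugt1a gene, to scale in kb from the first shared exon; bottom, Ugt1a1 over Ugt1a9 FPKM in each library (red APAP, blue saline, lines group means, open points single libraries). Filled points of Het and WT APAP libraries sit at 1.49 or below, and those of Het and WT saline libraries at 2.75 or above. The open point of the WT saline IG library sits at 2.40.

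Ugt2b enzymes conjugate steroids, bile acids and drugs. Ugt2b1 (chromosome 5, 86916638 to 86926530, minus strand) had 64.9 and 91.5 FPKM in OE APAP livers, against 125 and 88.9 in OE saline livers. It had 28.4, 13.3 and 16.95 in Het APAP livers, against 189 and 194 in Het saline livers, and 81.2, 57.8 and 38.6 in WT APAP livers, against 231, 247 and 229.9 in WT saline livers. The Het and WT pairs were apart and the OE pair overlapped narrowly. The Het difference was the largest of the 10 genes (-2.98 ± 0.30, adjusted p = 2.80e-04, 7.88-fold lower), and that in WT livers was -1.72 ± 0.27 (adjusted p = 0.00806, lost without WT saline 3). In OE livers it was -0.45 ± 0.30 (95% interval -1.09 to 0.20).

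Ugt2b5 had 334 and 253 FPKM in OE APAP livers, against 289.7 and 444 in OE saline livers. It had 129.8, 103 and 103 in Het APAP livers, against 500.1 and 515 in Het saline livers, and 198, 249 and 162 in WT APAP livers, against 423, 514 and 407 in WT saline livers. The highest APAP library under the Het and WT labels lay well below the lowest saline one, and the OE groups overlapped. It fell by 2.22 in Het (adjusted p = 7.58e-04) and by 1.20 in WT livers (adjusted p = 0.0192, lost without any of the 3 WT saline livers or without WT APAP 3). Ugt3a2 (chromosome 15, 9335550 to 9370955, plus strand), whose human counterpart uses UDP-glucose and UDP-xylose as sugar donors, had 185 and 104 FPKM in OE APAP and 126 and 167 in OE saline livers. It had 51.9, 41.9 and 43.1 in Het APAP and 193 and 207 in Het saline livers, and 87.8, 84.00 and 58.7 in WT APAP and 178, 195 and 178 in WT saline livers. It fell by 2.22 in Het and by 1.38 in WT livers (adjusted p = 6.80e-04 and 0.0117), and both calls held under every alternative setting. The OE difference was -0.064 ± 0.27, with a 95% interval of -0.65 to 0.52.

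Sult1a1, the phenol sulfotransferase that acts on APAP, fell in Het livers and did not pass in OE or WT livers. Its levels were 343 and 263 FPKM in OE APAP livers and 232 and 296 in OE saline livers. They were 109, 173 and 118 in Het APAP livers, against 244 and 218 in Het saline livers, and 162, 128 and 91.4 in WT APAP livers, against 162, 159 and 166 in WT saline livers. The Het groups were apart (-1.01 ± 0.27, adjusted p = 0.0187, lost without Het APAP 1, without Het saline 1 and without Het saline 2). The WT groups overlapped (-0.58 ± 0.24, adjusted p = 0.181), as did the OE groups (0.19 ± 0.26). Every OE liver, the 300 mg/kg one included (270.2 FPKM), had more Sult1a1 than every WT liver. So did both Het saline livers and Het APAP 2, and OE and WT livers shared no lane. The share of all genes with such a pattern was not computed.

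Sult1d1 (chromosome 5, 87554645 to 87569027, minus strand), which sulfates catecholamines, had 68.2 and 40.4 FPKM in OE APAP livers, against 40.7 and 81.9 in OE saline livers. It had 16.4, 45.5 and 14.5 in Het APAP livers, against 55.9 and 59.3 in Het saline livers, and 25.7, 22.4 and 18.5 in WT APAP livers, against 51.9, 53.05 and 57.1 in WT saline livers. Het APAP 2 stood near the saline levels while Het APAP 1 and 3 were far below them, the 3 WT APAP livers were all low, and the OE groups overlapped. The differences were -0.13 ± 0.39 in OE, -1.73 ± 0.39 in Het and -1.65 ± 0.36 in WT livers (adjusted p = 1, 0.00995 and 0.0223). The Het call was lost without either Het saline liver, and the WT call without any of the 3 WT saline livers, without WT APAP 2 and without WT APAP 3. Sult5a1 (chromosome 8, 123140192 to 123158315, minus strand), the gene of lowest level, had 3.96 and 2.91 FPKM in OE APAP and 5.39 and 3.98 in OE saline livers. It had 1.02, 0.910 and 1.63 in Het APAP and 8.93 and 4.70 in Het saline livers, and 1.31, 2.203 and 3.21 in WT APAP and 11.9, 9.52 and 9.07 in WT saline livers. All 3 pairs were apart, that of OE barely, and it fell by 1.78 in Het and by 1.80 in WT livers (adjusted p = 0.00291 and 0.00826) under every setting tried. The added 1 FPKM makes these differences smaller than the ratios of the levels.

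Papss2 (chromosome 19, 32595790 to 32667187, plus strand), which makes PAPS, had 40.2 and 35.5 FPKM in OE APAP livers, against 64.4 and 37.9 in OE saline livers. It had 13.9, 6.07 and 7.38 in Het APAP livers, against 39.7 and 32.8 in Het saline livers, and 42.8, 27.9 and 14.8 in WT APAP livers, against 57.4, 50.2 and 69.98 in WT saline livers. The Het levels were low in all 3 APAP livers, the WT APAP levels were widely spread, and the OE groups overlapped. It fell in Het livers (-1.76 ± 0.44, adjusted p = 0.0159, lost without either Het saline liver) and did not pass in WT (-0.94 ± 0.40, adjusted p = 0.187) or OE livers (-0.38 ± 0.43). Papss1, the other PAPS synthase, moved the opposite way in Het livers: it averaged 10.02 ± 2.62 FPKM in Het APAP livers (n = 3) and 5.95 ± 0.0551 in Het saline livers (n = 2), and rose by 0.77 (adjusted p = 0.0113). In WT livers it averaged 13.1 ± 1.37 after APAP and 7.60 ± 0.490 under saline (n = 3 each) and rose by 0.84 (adjusted p = 0.0158). In OE livers its difference was 0.16 ± 0.18. Mean Papss2 was 9.12 FPKM in Het APAP livers, close to that of Papss1 there, and above it in each other group.

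In OE livers the differences ran from -0.78 (Ugt1a1) to 0.19 (Sult1a1), 8 of 10 negative. Falls of 1 or more on the log2 scale stay inside the 95% interval for Ugt1a1, Ugt2b1, Sult5a1 and Papss2 (Papss2, -1.33 to 0.57), and outside it for the other 6 genes. Within lane 8, 1 against 1 liver, 9 of 10 genes were lower after APAP (median -0.36), and within lane 4, 1 against 1, 5 of 10 (median 0.019). The shares of all tested genes lower in these pairs were not computed. The 300 mg/kg OE liver had 66.4 FPKM of Ugt1a1, 154 of Ugt2b1, 397 of Ugt2b5, 104 of Sult1d1 and 49.2 of Papss2. Its Ugt2b1 and Sult1d1 levels lay above all 4 other OE livers, and those of the other 8 genes lay inside their range, where 23% of all tested genes lay above and 22.7% below. The IG saline liver had 121 FPKM of Ugt1a1, 280.3 of Ugt2b1 and 123 of Sult1a1. For 5 genes it lay below the 3 WT saline livers, for 2 above them and for 3 inside their range, where 25.9% of all tested genes lay below and 25.6% above.

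Whether the response differed between labels was tested itself, and no gene of the 10 passed in any of 3 such tests. The OE response minus the WT response was positive for all 10 genes (median 1.09), with the smallest p for Ugt3a2 (1.31 ± 0.37, adjusted p = 0.762). At an unadjusted p under 0.05 limma called 5 of the 10 and 5.99% of all tested genes, and 0% of all with adjustment. This contrast is the OE minus WT difference after APAP less the one under saline. After APAP all 10 differences were positive (median 0.52), and under saline 8 of 10 were negative (median -0.34). For Ugt2b1 they were 0.20 and -1.08, and for Sult1a1 1.41 and 0.64. The Het response minus the WT response was negative for 9 of 10 (median -0.79), with the smallest p for Ugt1a9 (-1.06 ± 0.30, adjusted p = 0.601), and 4 of the 10 and 8.28% of all genes were called unadjusted and 0.00902% adjusted. The OE response minus the Het response, a comparison added after the data were seen, was positive for all 10 (1.136 to 2.53), with the smallest p for Ugt2b1 (2.53 ± 0.42, adjusted p = 0.0763). All 10 and 18.4% of all genes were called unadjusted, and 0.0361% of all genes adjusted. Counts of adjusted calls among the 10 reached 6 without Het APAP 1, where 474 of all tested genes were called, against 4 in the main fit. The responses share libraries between these tests.

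After APAP, OE livers had more of these transcripts than Het livers. With limma 9 of the 10 genes were higher in OE than in Het livers, where 8.75% of all tested genes were, and the libraries of 8 genes were apart, against 23.3% of all. The largest differences were those of Papss2 (1.97 ± 0.40, adjusted p = 0.012), Ugt2b1 (1.91 ± 0.27, adjusted p = 0.00466) and Ugt3a2 (1.62 ± 0.25, adjusted p = 0.0048). Sult1a1 was 1.24 higher, Ugt1a1 1.47, Ugt2b5 1.39, Sult1d1 1.30, Ugt1a9 1.22 and Sult5a1 1.02, and Ugt1a6a did not pass (0.99 ± 0.32, adjusted p = 0.0606). With lane in place of perfusion 0 of 10 passed, where 4 of all tested genes were called. Without OE APAP 1, the APAP liver of lane 4 that stands apart, 1 OE APAP liver was left, so calls cannot be judged there. Without that liver Ugt2b1 was 1.92 higher and Papss2 1.65, while Ugt1a1 was 0.66 and Ugt1a9 0.78 higher. Within lane 8, 1 against 1 liver, 9 of 10 were higher in OE (median 0.97), with 1.65 for Ugt2b1, 0.57 for Ugt1a9, 0.28 for Ugt1a1 and -0.0081 for Ugt1a6a. The share of all tested genes higher in that pair was not computed. With quantile normalisation all calls split into 652 higher and 615 lower, against 970 and 549 in the values as deposited, and 7 of the 10 genes were higher.

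OE and WT livers after APAP shared no lane. All 10 differences were positive (median 0.52) and 0 passed, with 3 of the 10 and 17.2% of all genes called by limma at an unadjusted p under 0.05 and 0.00902% with adjustment. Sult1a1 had the smallest p (1.41 ± 0.26, adjusted p = 0.0929), and its OE and WT libraries were apart. The libraries were apart for 4 of the 10 genes (Ugt2b5, Ugt3a2, Sult1a1 and Sult1d1), against 16.1% of all tested genes. Between Het and WT livers after APAP, Ugt2b1 alone passed (-1.71 ± 0.25, adjusted p = 0.0269), where 0.0541% of all tested genes were lower in Het. Within lane 5 its difference was -1.85 (2 Het against 3 WT livers). The call held under 11 of 23 alternative settings, with values of -1.98 to -1.46. With lane in place of perfusion 6 of the 10 genes were lower in Het livers and passed, and with no perfusion term 0 passed. Of all tested genes 507 were lower and 249 higher in Het livers with lane, against 6 and 1 in the main fit. Papss2 was -1.60 (adjusted p = 0.065), and Sult1a1 (0.17) and Sult1d1 (0.21) were the genes of positive sign.

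**Figure D4:**
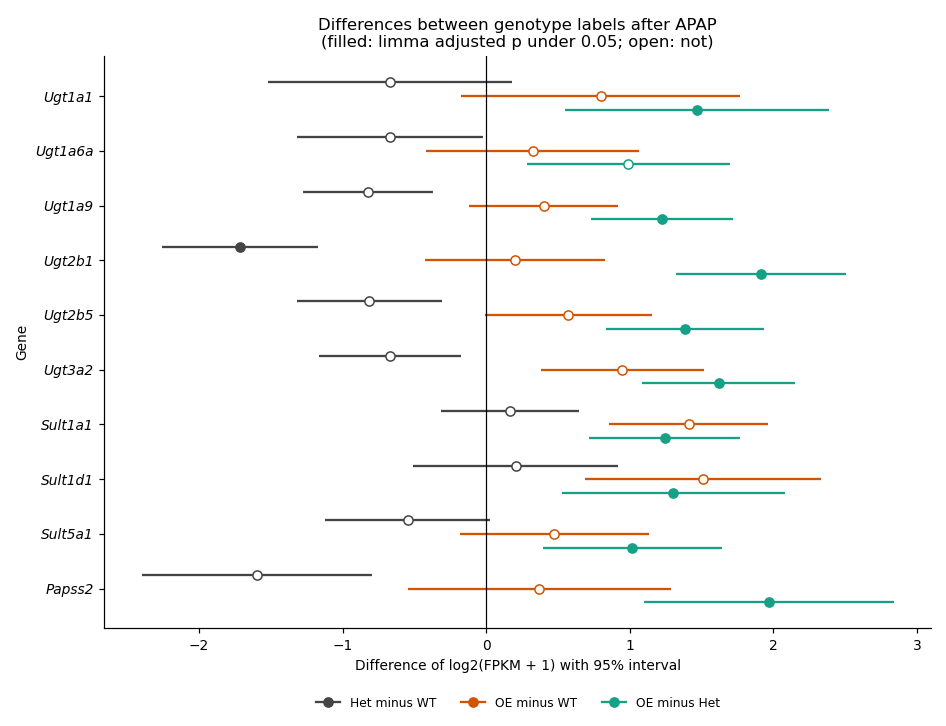
Differences of log2(FPKM + 1) between genotype labels after APAP, with 95% intervals and filled points for limma's adjusted p under 0.05. The OE minus Het points all lie above 0 and 9 are filled, no OE minus WT point is filled, and of the Het minus WT points that of Ugt2b1 is filled.

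Under saline 0 of the 10 genes passed between labels. OE minus WT was -1.08 to 0.64, with 8 of 10 negative (median -0.34). The smallest p was that of Ugt2b1 (-1.08 ± 0.27, adjusted p = 0.428), whose 2 OE saline livers lay below all 3 WT saline livers. limma called 3 of the 10 and 5.97% of all genes there at an unadjusted p under 0.05, and 0.0361% with adjustment. Het minus WT was -0.78 to 0.60, with the smallest p for Sult1a1 (0.60 ± 0.25, adjusted p = 0.375), and 1 of the 10 and 11.9% of all genes were called unadjusted and 0.0451% adjusted. Label and lane cannot be told apart in these saline comparisons.

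The other enzymes of the same families mostly fell in the averaged response, in which 13.3% of all tested genes fell and 9.81% rose. The same shares hold for the other lists of that response. Of 16 other Ugt genes 10 were tested, of which 7 fell and 1 rose (median -0.98). Ugt3a1 (-1.66 ± 0.17), Ugt2a3 (-1.37 ± 0.16), Ugt2b34 (-1.18 ± 0.20), Ugt2b35 (-1.14 ± 0.17) and Ugt2b36 (-1.07 ± 0.17) were among those that fell. Ugt2b37, which shares sequence with Ugt2b5, rose by 0.77 at a low level, 3.29 ± 0.107 FPKM in Het APAP and 1.47 ± 0.454 in Het saline livers. Of 18 other Sult genes 3 were tested and all 3 fell: Sult2a8, of the family that sulfates steroids and bile acids (-2.81 ± 0.29), Sult1b1 (-1.05 ± 0.18) and Sult1c2 (-0.72 ± 0.16). By label, 0 other Ugt genes fell in OE, 7 in Het and 4 in WT livers, against 0%, 13.1% and 3.57% of all tested genes.

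Genes that supply the donors or carry the products were looked at in the same response. Of 4 genes around UDP-glucuronic acid, Ugp2, which makes UDP-glucose, fell (-0.67 ± 0.17, adjusted p = 0.0135). Ugdh, which oxidises UDP-glucose to UDP-glucuronic acid, was -0.24 ± 0.12, the transporter gene Slc35d1 0.039 ± 0.19 and Gusb, which cleaves glucuronides, -0.0021 ± 0.10, and none of these 3 passed. Of 13 PAPS and sulfate genes 10 were tested, 5 fell and Papss1 rose. Cth (-1.49 ± 0.24), Cdo1 (-0.57 ± 0.15) and Suox (-1.16 ± 0.19), which lead from sulfur amino acids to sulfate, fell, and so did the sulfate transporter gene Slc26a1 (-0.87 ± 0.18) and Bpnt1 (-0.53 ± 0.11), which removes the product left of PAPS. Of 4 transporter genes that export conjugates, Abcc2 (-0.62 ± 0.16) and Abcg2 (-0.93 ± 0.12) of the bile side and Abcc3 (-0.81 ± 0.19) of the blood side fell, and Abcc4 of the blood side rose (1.12 ± 0.12, adjusted p = 2.00e-04).

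Of 11 regulators 5 fell and 0 rose: Nr1i3 (CAR, -1.90 ± 0.40), Nr1h4 (FXR, -1.09 ± 0.13), Cebpa (-0.92 ± 0.16), Ppara (-0.74 ± 0.13) and Foxa2 (-0.59 ± 0.19), all factors of hepatocytes. Nfe2l2, the factor of antioxidant genes, was -0.32 ± 0.13 and did not pass. Of 11 genes of the oxidative route and glutathione, 5 fell and Gstp2 rose (0.61 ± 0.18). Cyp2e1, the main enzyme that activates APAP (-2.56 ± 0.49), and Cyp3a11 (-2.07 ± 0.44) were among those that fell. The route that activates APAP and those that conjugate it thus both held genes that fell. Of 7 pericentral genes tested 5 fell (Glul, -3.39 ± 0.25, and Slc1a2, -3.06 ± 0.40), and of 9 periportal genes 4 fell (Cyp2f2, -1.10 ± 0.17). The medians were -1.78 for the pericentral and -0.42 for the periportal list. Split by label, 0 regulators fell in OE, 6 in Het and 1 in WT livers. In the same order 0, 4 and 1 oxidative and glutathione genes fell, 0, 5 and 4 pericentral and 0, 5 and 1 periportal genes. In these 4 lists 0 genes rose under any label. Of all tested genes 0%, 13.1% and 3.57% fell.

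**Figure D5:**
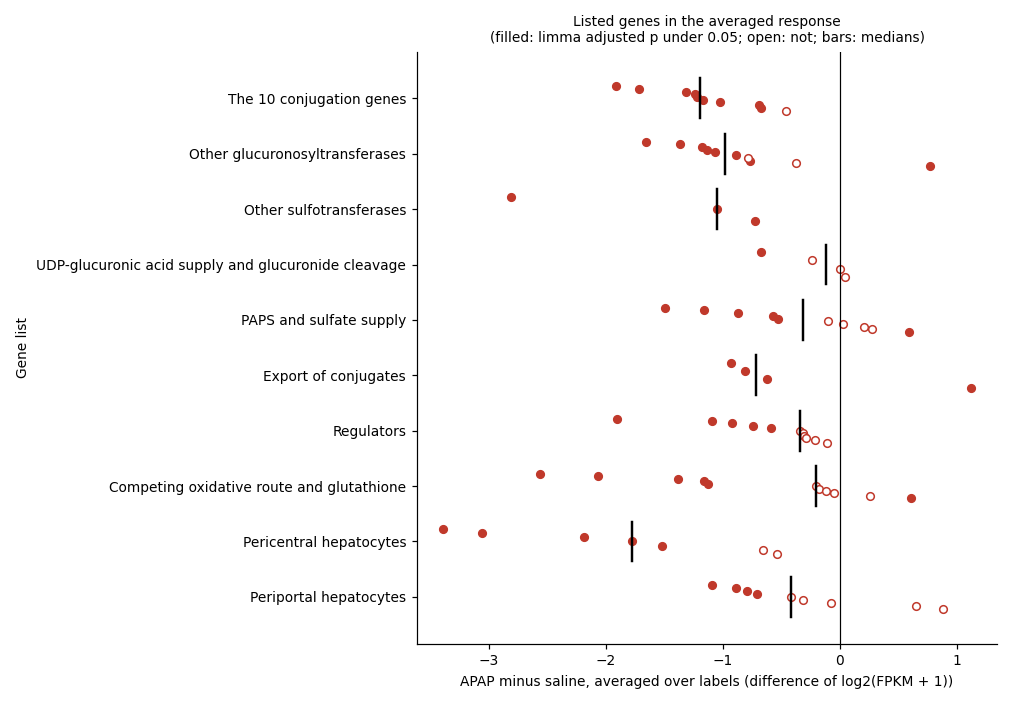
Averaged APAP minus saline difference of log2(FPKM + 1) for the tested genes of each list; filled points passed limma's adjusted p of 0.05 and bars are list medians. The 10 genes have a median of -1.19, the pericentral list -1.78 and the list of UDP-glucuronic acid supply -0.12.

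Some cell type markers also differed between APAP and saline livers. The summed level of 6 monocyte and macrophage markers was 46.7 to 120.4 FPKM in OE APAP and 36.6 to 96.6 in OE saline livers, 189 to 281 in Het APAP and 61.8 to 104 in Het saline livers, and 73.3 to 276 in WT APAP and 45.2 to 81.2 in WT saline livers. Neutrophil markers summed to 5.40 to 68.8 in OE APAP and 1.65 to 8.80 in OE saline, 77.6 to 445 in Het APAP and 2.33 to 3.36 in Het saline, and 8.04 to 102 in WT APAP and 2.10 to 2.37 in WT saline livers. Hepatocyte markers summed to 12434 to 14777 in OE APAP and 11874 to 18039 in OE saline, 6957 to 9506 in Het APAP and 13142 to 14016 in Het saline, and 8278 to 12157 in WT APAP and 12464 to 14683 in WT saline livers. In the averaged response, in which 9.81% of all tested genes rose and 13.3% fell, 5 of 6 monocyte and macrophage markers and 3 of 3 tested neutrophil markers rose, 3 of 7 hepatocyte markers (Apoc3, Ass1 and Cps1) fell, and 0 of 6 Kupffer cell markers passed. Of the others 1 of 5 endothelial markers fell (Clec4g), 3 of 6 stellate cell markers rose and 1 fell, 1 of 2 tested bile duct markers rose (Sox9) and 1 of 5 erythroid markers fell (Alas2). Split by label, 0 monocyte and macrophage markers rose in OE, 5 in Het and 1 in WT livers. In the same order 0, 3 and 0 neutrophil markers rose and 0, 2 and 0 hepatocyte markers fell. Of the 11084 tested genes limma called 0 in OE livers, 1005 higher and 1455 lower in Het livers, and 220 higher and 396 lower in WT livers. The part of these cell types in the results on the 10 genes was not tested.

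The genes most like each of the 10 over all 17 libraries were found among 6052 genes by the root mean square difference of log2(FPKM + 1), each gene centred on its mean. Ugt1a1 was nearest to Acss3 (0.27) and Slc10a1 (0.28), Ugt1a6a to Lactb (0.17) and Got2 (0.18) and Ugt1a9 to Suclg1 (0.16) and Dbt (0.18). Ugt2b1 was nearest to Nudt7 (0.25) and Ces1e (0.34), Ugt2b5 to Acsm3 (0.16) and Agmo (0.18) and Ugt3a2 to Acsm3 (0.11) and Dhdh (0.17). Sult1a1 was nearest to Mrpl15 (0.27) and Tspan31 (0.27), Sult1d1 to Ech1 (0.37) and Sar1b (0.37), Sult5a1 to Cyp4v3 (0.36) and Rarres1 (0.38) and Papss2 to Aldh4a1 (0.26) and Pecr (0.27). Among the 10 genes themselves, Ugt2b5 and Ugt3a2 were the closest pair (0.15), and Acsm3 was nearest to both. Likeness of pattern here includes what libraries share, such as lane and depth.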

How the data were processed

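Total RNA of 17 livers was made into stranded libraries, with paired-end reads, per the labels' protocols. The submitters' processing notes name bcl2fastq 2.17.1.14, TopHat2 2.0.9, Cuffdiff and Cufflinks 2.2.1, and the build GRCm38.p5. The annotation is not given in the sources used here. Deposited values were read as FPKM, which the authors made with these tools. No header names the unit, which was inferred from the tools and the values. Absolute depth is unknown, so no counting interval is given.

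Of 46073 genes, 45139 IDs matched a symbol. A gene at 0 throughout a genotype and treatment with at least 10 FPKM elsewhere was left out as a failed estimate (108 genes, none of those described). Kept were genes averaging at least 1 FPKM (11084). limma 3.58.1 (statmod 1.5.0, R 4.3.3) fitted log2(FPKM + 1) by 8 groups and liver perfusion, which follows the lane, with a trended, robust variance, and adjusted p by Benjamini-Hochberg at 0.05. The script was tested on simulated data. Group differences are on the log2(FPKM + 1) scale and understate changes of low genes.

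Named are the 10 genes in the APAP comparisons, elsewhere those that passed and that of smallest p, up to 6 genes of smallest p per list, and for each gene the 2 of most similar pattern with a mean of at least 5 FPKM. Sums, the ratio and single levels pointed out beyond that were chosen after their values were seen. The genes and lists were chosen with earlier results of these data known. Promoters come from RefSeq (GRCm38.p6), gene models from GENCODE M21 (GRCm38). Alternatives were another pseudocount (0.1), no filter on low values, quantile normalisation, no perfusion term, lane in its place, single libraries pooled, failed estimates kept, and leaving out libraries.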

Additional observations from a re-analysis of the deposited data

How the results depend on the processing

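The 6 falls of Ugt1a1, Ugt2b1, Ugt2b5, Ugt3a2, Sult1d1 and Sult5a1 averaged over labels passed under each of 22 alternatives, and the count of the 10 genes that passed was 0 under each alternative run for the OE response, the Het and OE responses minus the WT response and both saline comparisons. The other counts changed with settings or single libraries, and the cause was not tested beyond the settings' own construction. Where leaving out a library left 1 liver in a group, fewer calls do not show that the removed liver carried a result. Of the 10 genes, 3 fell in WT with no filter on low values and 6 in Het with lane in place of perfusion. The OE response minus the Het response passed for 3 genes with single libraries pooled and 2 with failed estimates kept, where 265 and 53 of all tested genes were called. After APAP, Het minus WT passed for 0 with no perfusion term, 6 with lane (756 of all tested genes) and 0 with single libraries pooled. OE minus WT passed for 1 with them pooled (22 of all), and OE minus Het for 0 with lane (4 of all). Leaving out 1 library at a time gave 6 to 10 genes averaged, 0 to 0 in OE, 6 to 10 in Het, 2 to 7 in WT, 0 to 6 for the OE minus Het response, and after APAP 0 to 10 for OE minus Het, 0 to 1 for OE minus WT and 0 to 5 for Het minus WT. In OE livers signs turned: Ugt3a2 was 0.059 with quantile normalisation, Sult1d1 0.093 with single libraries pooled and Ugt1a6a -0.28 without OE saline 2 and OE APAP 1. Leaving out 1 library moved Ugt1a6a between -0.47 and 0.56, Ugt1a9 between -0.70 and 0.13, Ugt2b5 between -0.65 and 0.044, Ugt3a2 between -0.48 and 0.35 and Sult1d1 between -0.39 and 0.12 there. Over all genes, 2561 calls averaged became 1640 without OE saline 2 and OE APAP 1 and 878 to 2690 without 1 library. The 616 calls in WT became 177 with no filter, 1242 with no perfusion term, 1070 with single libraries pooled and 145 to 969 without 1 library, and the 2460 in Het 843 with lane and 890 to 2634. The 1519 calls of OE minus Het after APAP became 924 with no filter, 4 with lane, 1 without both libraries and 5 to 1911 without 1 library, and the 7 of Het minus WT after APAP ranged from 2 with no perfusion term to 756 with lane, and 1 to 856. Other comparisons called 0 to 5 genes and reached 265 (OE minus Het response, single libraries pooled) or 474 (without Het APAP 1). A lane term could not be fitted for the averaged and WT responses, the responses relative to WT and the saline comparisons. No paired analysis was possible because replicate numbers follow the order of deposit and pair no livers. Precision is limited by 2 or 3 livers per group and by reads shared within the Ugt1a locus, while absolute depth is unknown.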
